A study of Mus musculus with 6 samples.

Results

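Vanins and pantothenate kinases act at opposite ends of coenzyme A turnover, and 5 mouse genes of these families, Vnn1, Vnn3, Pank1, Pank2 and Pank3, are described here in regenerating liver. They were taken by name from the annotation of the array, with every probe set that names 1 gene only, which gave 12 probe sets among the 5 genes of 18193 genes with such a probe set. The genes were selected on the log2 values of Cre plus against Cre minus in these same 6 arrays, so their differences between the groups are given as a description, with no p-value, and nothing is drawn from them. The 2 groups were liver labelled SOCS3 Cre plus (Socs3 fl/fl with the Cre transgene Alb-Cre+, 3 arrays) and liver labelled SOCS3 Cre minus (Socs3 fl/fl littermates, Alb-Cre-, 3 arrays), with arrays A, B and C in each. The albumin promoter, which is active in hepatocytes, drives Cre so that Socs3 is excised there. Socs3 restrains the JAK kinases and STAT3 downstream of cytokine receptors. In which cells of the liver it was excised was not measured here. Every mouse was C57BL/6, every mouse in both groups carried the floxed alleles, and every liver was taken 18 hours after removal of most of the liver by partial hepatectomy. Unoperated or sham-operated livers, and Cre without the floxed alleles, were not analysed here, so neither a difference that preceded surgery nor an effect of the Cre transgene can be told apart from the loss of Socs3. Age was not given in the labels, nor was it stated that each array came from its own mouse, so the errors measure the spread between arrays, which may be partly technical.

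Coenzyme A carries the acyl groups of fatty acid oxidation, ketone body formation, lipid synthesis and the citric acid cycle, and the liver holds large amounts of it. Cells make it from pantothenate (vitamin B5), and pantothenate kinases catalyse the first and rate-controlling step, the phosphorylation of pantothenate. When coenzyme A is broken down, the fragment pantetheine is split by vanins, which are ectoenzymes with pantetheinase activity, into pantothenate, which can be used again, and cysteamine, a precursor of hypotaurine and taurine. Vnn1 and Pank1 are known targets of PPARa, the nuclear receptor that drives fatty acid oxidation during fasting.

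The 3 pantothenate kinase genes share a feature that their names do not show: each holds a microRNA gene within its span and on its own strand. In RefSeq's GRCm38.p6 annotation Mir107 lies in Pank1 on chromosome 19, Mir103-2 in Pank2 on chromosome 2 and Mir103-1 in Pank3 on chromosome 11. The mature sequences of the 3′ arm are shown because they tie the loci together, with the seed, bases 2 to 8 from the 5′ end, in capitals. The first is encoded both in Pank2 (chr2:131288103-131288125, plus strand) and in Pank3 (chr11:35782447-35782469, plus strand), the second in Pank1 (chr19:34820700-34820722, minus strand).
mmu-miR-103-3p: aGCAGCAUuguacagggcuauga
mmu-miR-107-3p: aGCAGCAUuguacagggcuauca
Both share the seed GCAGCAU, which no other of the 1679 mature miRNA names in the table has. They differ by G22C, counted from the 5′ end of miR-103-3p. The arrays measured the host messenger RNAs with probe sets and gave no value for these microRNAs.

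Vnn1, Vnn3 and Pank1 had lower values in Cre plus than in Cre minus liver on each of the 6 probe sets that passed the filter (3 or more of the 6 arrays above 4 on the log2 scale), and the groups did not overlap on any of them. Pank2 and Pank3 differed less, and the groups overlapped on 3 of their 4 passing probe sets. Over all 10 passing probe sets of the 5 genes, 7 lay lower in Cre plus without overlap, where 11.0% of the 15563 probe sets passing the filter did so. Since the genes were picked with this comparison known, nothing is read from that count. All levels below are the deposited log2 array values, and each difference is Cre plus minus Cre minus with the standard error (SE) of limma. It fits a linear model to each probe set, or for other genes to each gene, and shares information on the variance between them.

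**Figure D1:**
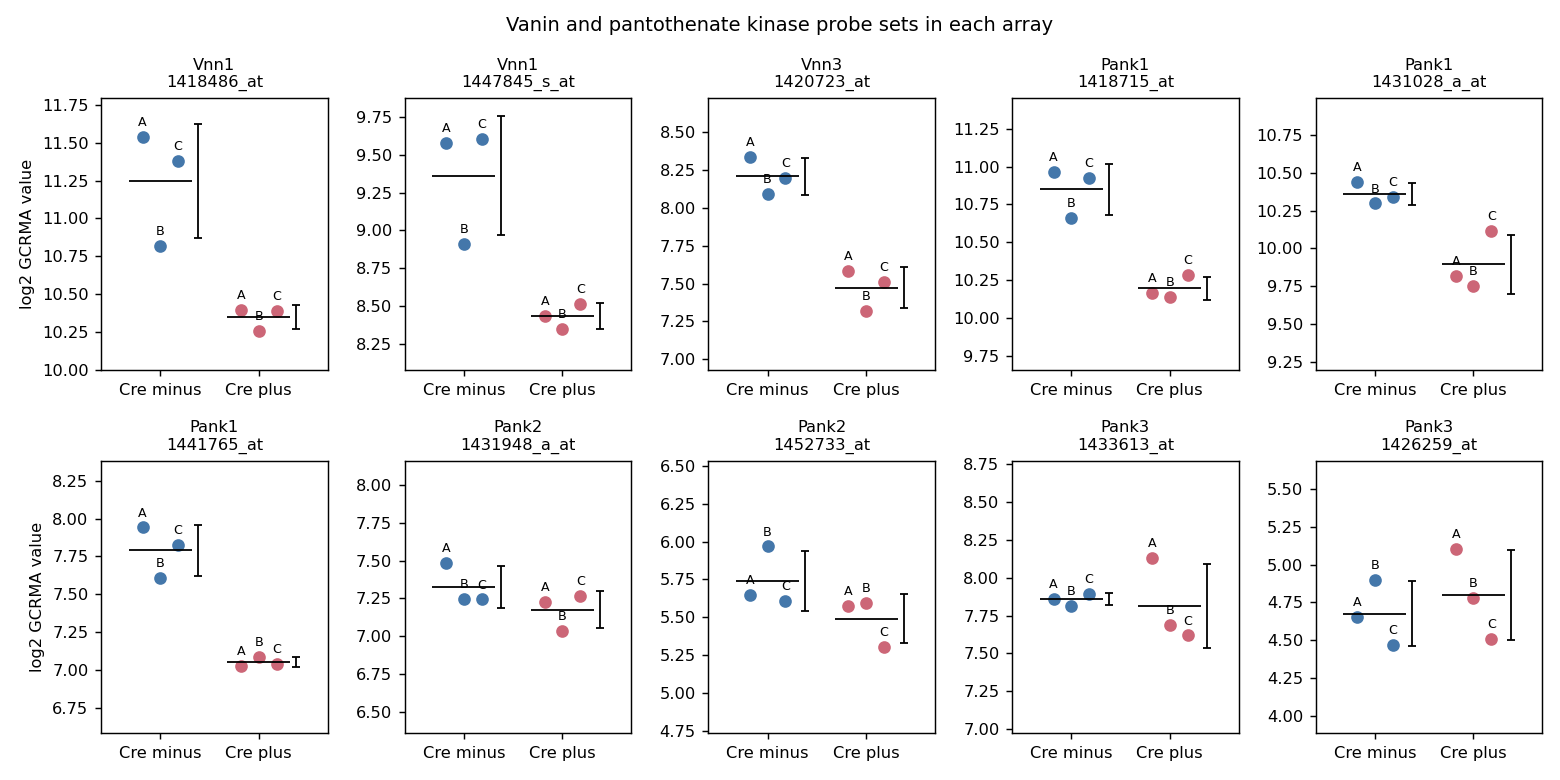
Values of the 10 probe sets of Vnn1, Vnn3, Pank1, Pank2 and Pank3 that passed the filter, 1 panel per probe set, with the log2 GCRMA value on the vertical axis (each panel spans the same range) and the group on the horizontal axis. Points are arrays A, B and C, the horizontal line is the group mean and the bar beside it the mean ± SD (n = 3); the groups stand apart in the panels of Vnn1, Vnn3 and Pank1.

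Vnn1 encodes vanin-1, the pantetheinase anchored to the hepatocyte surface. On its brighter probe set (1418486_at) arrays A, B and C read 11.54, 10.82 and 11.38 in Cre minus and 10.40, 10.26 and 10.39 in Cre plus, on the log2 scale. Every Cre plus liver lay below every Cre minus liver, by at least 0.42. The difference was -0.90 ± 0.19 (SE), so Cre plus livers had 53.6% of the control signal. The other Vnn1 probe set (1447845_s_at) gave 9.58, 8.91 and 9.60 in Cre minus and 8.43, 8.35 and 8.52 in Cre plus, a difference of -0.93 ± 0.20. Both probe sets had the same layout, with Cre minus B well below Cre minus A and C and the Cre plus arrays close together. The SD of the brighter one was 0.38 in Cre minus and 0.08 in Cre plus, where the median SD over all genes was 0.10 and 0.13. The size of the Vnn1 difference varied with the controls, as it was -1.11 without Cre minus B and -0.75 without Cre minus A.

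Vnn3 encodes another pantetheinase of the family and lies next to Vnn1 on chromosome 10, with no other protein-coding gene starting between them in the annotation. On its 1 probe set (1420723_at) arrays A, B and C read 8.33, 8.09 and 8.20 in the Cre minus group and 7.58, 7.32 and 7.51 in the Cre plus group. The groups were 0.51 apart at their nearest arrays, and array B was the lowest in each. The difference was -0.74 ± 0.10 (SE), which left 60.0% of the Cre minus signal. The spread was alike in both groups, with an SD of 0.12 in Cre minus and 0.14 in Cre plus.

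The RefSeq promoter table held Vnn3, Pank1, Pank2 and Pank3, with 7 entries in all. The 250 bases before each start were searched on both strands for a STAT element (TTCNNNGAA), a C/EBP element (TTGCNNAA) and the nuclear receptor hexamer AGGTCA. STAT3 and C/EBP factors act in the cytokine response of the liver and PPARa binds repeats of such hexamers. The Vnn3 window is shown because it held the only match among the 7, with the match in capitals (GRCm38.p6, chr10:23851212-23851461, plus strand).
Vnn3: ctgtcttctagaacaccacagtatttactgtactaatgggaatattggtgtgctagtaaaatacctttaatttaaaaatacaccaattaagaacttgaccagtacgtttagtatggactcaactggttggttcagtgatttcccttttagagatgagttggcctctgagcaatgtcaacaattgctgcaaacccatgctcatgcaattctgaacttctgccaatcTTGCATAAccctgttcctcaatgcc
The match, TTGCATAA, is of the C/EBP kind and lies 18 to 25 bases before the start. Of the 32851 promoter entries in the table, 9.56% held this motif in the same window, 7.02% the STAT element and 14.0% the hexamer. A match of letters is not a binding site, and windows without one say only that these letters are not there.

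The nearest protein-coding genes on either side of the vanin pair and of the other loci were looked up after these values were seen. Slc18b1, which encodes a polyamine transporter and flanks Vnn3, lay near the filter, at 4.74, 4.75 and 4.41 in Cre minus and 4.33, 4.07 and 3.98 in Cre plus. Its groups did not overlap, its difference was -0.51 ± 0.13 and it did not pass (limma adjusted p = 0.200). Taar1, a trace amine receptor gene on the other side of the pair, was near the bottom of the scale in every array, between 2.18 and 2.20. Beside Pank1, Slc16a12, a gene of the monocarboxylate transporter family, had values of 9.75, 9.68 and 9.70 in Cre minus and 8.86, 9.57 and 8.87 in Cre plus, a difference of -0.61 ± 0.20 that did not pass (limma adjusted p = 0.268). Cre plus B stood apart there and lay close to the controls. Without Cre plus B the Slc16a12 difference was -0.85 ± 0.06 and passed (limma adjusted p = 0.0309), where 13 of all genes tested did. For Mavs and Rnf24 beside Pank2 the groups overlapped.

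Pank1 encodes the pantothenate kinase most abundant in liver. On its brightest probe set (1418715_at) arrays A, B and C read 10.97, 10.66 and 10.93 in Cre minus and 10.16, 10.14 and 10.28 in Cre plus, on the log2 scale. The groups were 0.37 apart at their nearest arrays. The difference was -0.65 ± 0.10 (SE), with 63.5% of the Cre minus signal left. The probe set 1441765_at gave 7.94, 7.61 and 7.82 in Cre minus and 7.02, 7.09 and 7.04 in Cre plus, a difference of -0.74 ± 0.09. On 1431028_a_at, whose name marks it as able to read several transcripts of the gene, the values were 10.44, 10.30 and 10.34 in Cre minus and 9.82, 9.75 and 10.11 in Cre plus, and the difference was -0.47 ± 0.11. Cre plus C lay nearest to the controls on this probe set, 0.18 below the lowest of them. A Pank1 probe set that missed the filter (1457110_at) stayed between 2.62 and 3.07 in all 6 arrays, near the bottom of the scale, and carried no usable signal. The passing probe sets thus agreed in direction and ranged from -0.74 to -0.47 in size.

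Pank2 encodes a pantothenate kinase whose human form is found in mitochondria and is mutated in an inherited neurodegenerative disease. On its brightest probe set (1431948_a_at) the values of arrays A, B and C were 7.49, 7.25 and 7.24 in Cre minus and 7.23, 7.04 and 7.26 in Cre plus. The groups overlapped, since Cre plus C lay above Cre minus B and C. The difference was -0.15 ± 0.10 (SE), and it was -0.07 without Cre minus A and -0.08 without Cre plus B. On 1452733_at the values were 5.65, 5.97 and 5.61 in Cre minus and 5.57, 5.59 and 5.30 in Cre plus, a difference of -0.25 ± 0.13. These groups did not overlap, but the nearest arrays were only 0.01 apart. The third Pank2 probe set (1458358_at) missed the filter and lay between 3.93 and 4.23.

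Pank3 encodes a cytosolic pantothenate kinase. Its brighter probe set (1433613_at) gave 7.86, 7.81 and 7.89 in Cre minus (arrays A, B and C in turn) and 8.13, 7.69 and 7.62 in Cre plus. Cre plus A lay above all controls and Cre plus B and C below all of them. The mean difference was -0.04 ± 0.14 (SE), and its sign turned when either Cre plus B (0.02) or Cre plus C (0.05) was left out. Its dimmer probe set (1426259_at) gave 4.66, 4.90 and 4.47 in Cre minus and 5.10, 4.78 and 4.51 in Cre plus, a difference of 0.12 ± 0.18. The probe sets of Pank3 therefore differed in sign, with Cre plus A the highest array on both. On the brighter one the SD was 0.04 in Cre minus and 0.28 in Cre plus, the reverse of Vnn1.

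Set against all 8554 genes tested, each read from its brightest passing probe set, Vnn1 had 32 genes with a lower difference, Vnn3 71 and Pank1 113. Pank2 had 1825 such genes and Pank3 3434. The median difference over all genes was -0.01. Past limma's adjusted p under 0.05 were 2 genes (0.0234% of those tested), Tifa and Steap4, both higher in Cre plus. No count of calls is given for the vanins and kinases themselves, and nothing is read from their ranks.

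**Figure D2:**
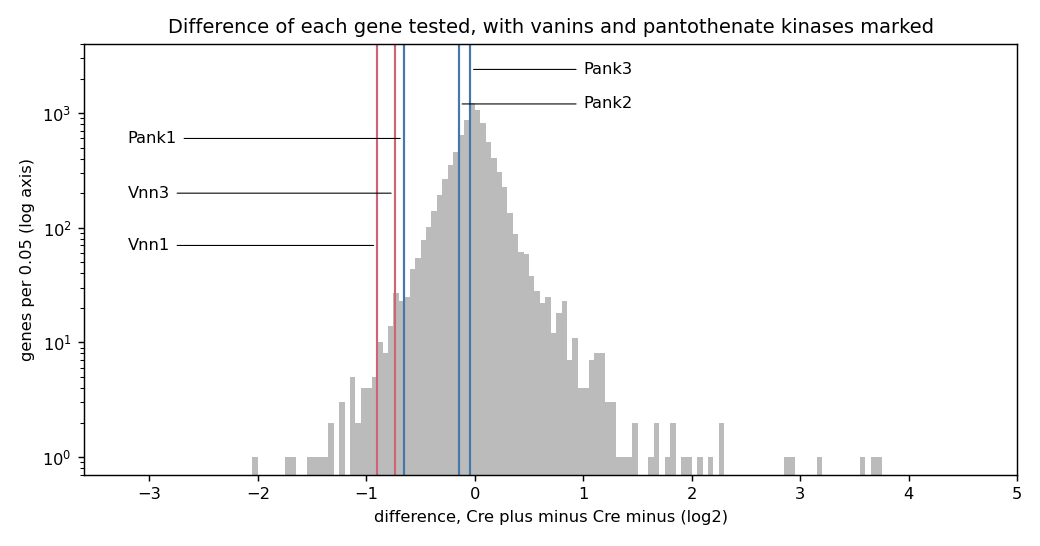
Histogram of the difference Cre plus minus Cre minus (log2, horizontal axis) over the 8554 genes tested, with the number of genes per bin on a log axis. Vertical lines mark Vnn1 and Vnn3 in red and the pantothenate kinases in blue; Vnn1, Vnn3 and Pank1 lie in the lower tail and Pank2 and Pank3 near the centre.

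The targeted gene bore out the labels. Socs3 was lower in every Cre plus than in every Cre minus array on each of its 3 probe sets. The differences were -2.01, -1.60 and -0.75, the last on a probe set that missed the filter and lay between 3.02 and 4.45. On the brightest of the 3 probe sets the array with the least Socs3 was Cre plus B, at 6.69 against 7.44 and 7.47 in Cre plus A and C. Over all genes Cre plus B lay nearer to the Cre minus arrays, with correlations of 0.991 to 0.993. Those of Cre plus A were 0.983 to 0.988 and those of Cre plus C 0.982 to 0.986. Within Cre plus, array B correlated with A at 0.989 and with C at 0.987, and A with C at 0.990. Without Cre plus B the differences were -0.85 for Vnn1, -0.66 for Vnn3 and -0.63 for Pank1.

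Within each group, array B tended to hold the lowest values of the genes that differed. Cre minus B was the lowest control on 6 of the 6 passing probe sets of Vnn1, Vnn3 and Pank1, and Cre plus B the lowest Cre plus array on 5 of the 6. For Pank2 and Pank3 this was so on 1 of 4 in each group. As probe sets of 1 array share its RNA, these are not independent counts. The same share over all passing probe sets was not counted, so nothing about these genes is read from them.

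Over the 6 arrays the brightest probe sets of Vnn1 and Vnn3 had a Pearson correlation of 0.95, Vnn1 and Pank1 of 0.98, and Vnn3 and Pank1 of 0.97. Pank2 correlated with these 3 genes at 0.70 to 0.75 and Pank3 at 0.10 to 0.27. These values describe 6 arrays that share the difference between the groups, and for each of Vnn1, Vnn3 and Pank1 between 150 and 200 of 8553 other genes reached over 0.9. The genes most like Vnn1 were Tmem106b (0.996), Mcrip2 (0.995), Bcar3 (0.989) and Ubxn1 (0.987). Those most like Vnn3 were Ptcd3 (0.997), the flavin monooxygenase gene Fmo1 (0.994), Hacd2 (0.988) and Exosc7 (0.984). Those most like Pank1 were C1qa (0.998), a complement gene of macrophages, Acadm (0.998), a dehydrogenase of fatty acid oxidation, Abcb4 (0.998), the phospholipid exporter of the bile canaliculus, and Ctps2 (0.988).

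The genes that ran most opposite are given by the same measure. For Vnn1 they were Bbip1 (-0.993) and the TNF receptor gene Tnfrsf1b (-0.991). For Vnn3 they were Tgm1 (-0.997) and Tm9sf2 (-0.997). For Pank1 they were A2m (-0.9997), a protease inhibitor of the acute phase response induced through STAT3, and Stx6 (-0.989). The log2 values of A2m in arrays A, B and C were 12.08, 12.66 and 12.16 in Cre minus and 13.64, 13.72 and 13.44 in Cre plus. A2m was thus highest in array B of each group, where Pank1 was lowest on its brightest probe set, in Cre plus by little (10.14 against 10.16 in A). Pank1 was lowest in both B arrays on 1431028_a_at too. On 1441765_at, however, Cre plus B was the highest Cre plus array, at 7.09 against 7.02 and 7.04. The passing probe sets of Bbip1 and of Stx6 had differences of opposite sign, so their place here depends on the probe set read. Other genes named by likeness kept their sign but varied in size between probe sets. These include Tmem106b (-0.38 to -0.11), Hacd2 (-0.35 to -0.01) and Tnfrsf1b (0.06 to 0.56).

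**Figure D3:**
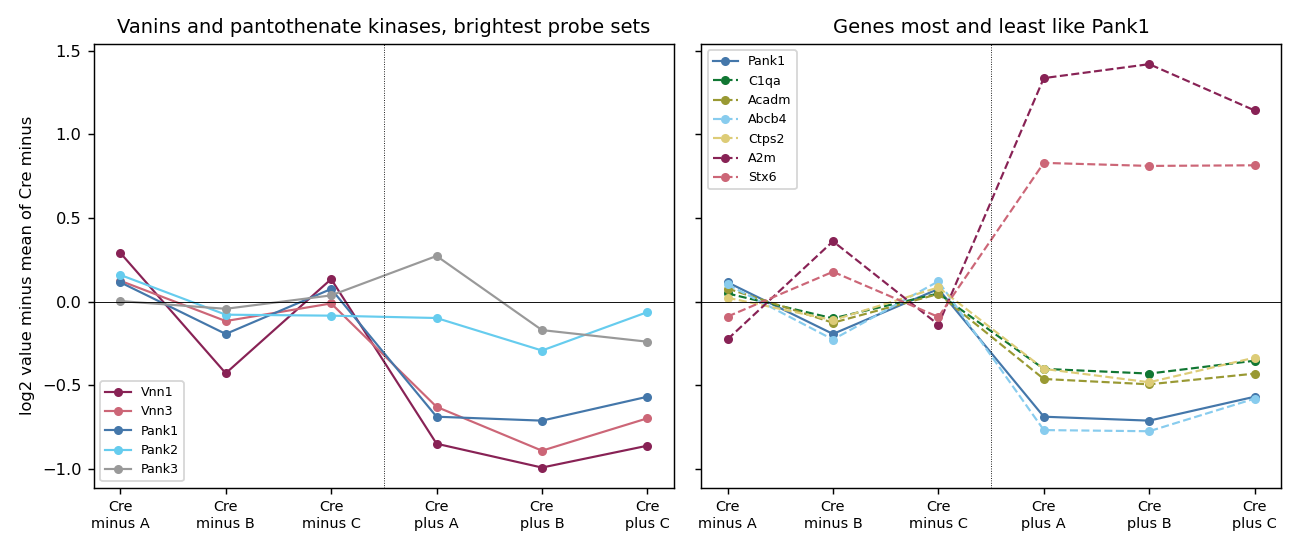
Log2 value of each gene's brightest probe set minus its mean over Cre minus (vertical axis) in the 6 arrays (horizontal axis), with lines joining the points of 1 gene. The left panel shows Vnn1, Vnn3, Pank1, Pank2 and Pank3, and the right panel Pank1 with the 4 genes most like it and the 2 most opposite; A2m is highest in array B of each group, where Pank1 is lowest.

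The other genes of coenzyme A metabolism had lower values in Cre plus more often than not, and none passed the test over all genes. From 6 lists of 55 genes (synthesis, breakdown, the cysteamine route, phosphopantetheine carriers, synthetases and thioesterases), 44 were tested, and the others missed the filter or were not analysed here. Of these 36 had lower and 8 higher values, so 81.8% were lower against 53.5% of all genes tested, and their median difference was -0.21 against -0.01. With limma's adjusted p under 0.05, 0 passed. At an unadjusted p under 0.05 15 were lower and 0 higher, so 34.1% were lower and none higher, against 8.21% (702 genes) and 6.62% of all genes. The lists overlap in function with the vanins and kinases and were drawn up with earlier results of these data known, so these shares are a description.

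Genes that carry pantothenate onward to coenzyme A and bring it into mitochondria had a median difference of -0.17, with 5 of 6 tested members lower and 0 past the test. Coasy, the bifunctional enzyme of the last steps of synthesis, had log2 means of 9.05 ± 0.17 in Cre minus and 8.59 ± 0.13 in Cre plus (SD, n = 3), a difference of -0.47 ± 0.11 (SE), while its other passing probe set gave -0.13. Slc25a42, a mitochondrial carrier of coenzyme A, had -0.38 ± 0.14, and Ppcs, the synthetase that follows the kinase step, -0.23 ± 0.10. Their limma adjusted p-values were 0.187, 0.300 and 0.357. Pank4, the family member without kinase activity, missed the filter, with group means of 2.41 and 2.48. The Slc25a42 difference was -0.24 without Cre minus C, and that of Ppcs -0.14 without Cre plus B.

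On the side of breakdown, where Nudix hydrolases and ectophosphodiesterases release the fragments that vanins act on, 4 of 5 tested genes had lower values and the median was -0.16, with 0 past the test. Nudt19, a peroxisomal coenzyme A hydrolase, had -0.21 ± 0.08, Nudt8, a mitochondrial one, -0.16 ± 0.11, and Btd, biotinidase, a relative of the vanins, -0.16 ± 0.13. Their limma adjusted p-values were 0.334, 0.560 and 0.604. Without Cre plus C the median was -0.03, 2 of the 5 genes had higher values, and Nudt8 and Btd were at -0.04 and -0.03.

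In cysteamine, hypotaurine and taurine metabolism, 5 of 6 tested genes had lower values, with a median of -0.29 (-0.17 without Cre minus C) and 0 past the test. Ado, the dioxygenase that turns cysteamine into hypotaurine and named after its values were seen, had overlapping groups and a difference of 0.01 ± 0.11. Fmo1, a flavin monooxygenase that also oxidises hypotaurine, read 9.05, 8.57 and 8.81 in arrays A, B and C of Cre minus and 7.74, 7.44 and 7.55 in those of Cre plus. Its groups did not overlap, its difference was -1.24 ± 0.14 and its limma adjusted p was 0.0732, which did not pass. With the filter over 6 it was 0.0321, which did. Cdo1, the cysteine dioxygenase, which feeds taurine synthesis from cysteine and not from cysteamine, had -0.58 ± 0.12 (adjusted p = 0.146), and the taurine transporter Slc6a6 -0.18 ± 0.11 (adjusted p = 0.503), which was -0.09 without Cre minus C and -0.30 without Cre minus B.

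Of the proteins that receive the phosphopantetheine arm of coenzyme A or work with such proteins, 3 of 6 tested genes had lower and 3 higher values. The median was -0.01, with 0 past the test. Aasdhppt, the transferase that attaches the arm, had -0.24 ± 0.06. Its 3 passing probe sets ranged from -0.24 to -0.05, and with their mean the difference was -0.16 and the groups overlapped. Ndufab1, the mitochondrial acyl carrier protein, had -0.14 ± 0.05, though its passing probe sets differed in sign. Fatty acid synthase, Fasn, had 0.35 ± 0.35, which was 0.67 when Cre plus B was left out and -0.04 when Cre plus C was. Their limma adjusted p-values were 0.194, 0.318 and 0.671.

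Enzymes that load acyl groups onto coenzyme A, the acyl-CoA synthetases, had 9 of 10 tested genes lower, with a median of -0.24 and 0 past the test. Acsm3 had -0.50 ± 0.09 and Acsm5 -1.05 ± 0.24, both medium-chain synthetases, and Slc27a2, a very long-chain synthetase, -0.29 ± 0.09. Their limma adjusted p-values were 0.120, 0.173 and 0.248. The thioesterases, which free coenzyme A from its esters, had 10 of 11 lower, with a median of -0.42 (-0.27 without Cre minus C) and 0 past the test. Acot12 had -0.58 ± 0.15, Acot8 -0.28 ± 0.09 and Acot13 -0.42 ± 0.15, with limma adjusted p-values of 0.206, 0.256 and 0.292.

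PPARa, its partners and its classic targets, to which Vnn1 and Pank1 belong by textbook knowledge, had 10 of 14 tested genes lower, with a median of -0.13 and 0 past the test. That median was -0.07 without Cre minus A and -0.06 both with no filter and with the filter over 6. Acadm, which tracked Pank1, had -0.46 ± 0.07, the omega-hydroxylase gene Cyp4a14 -1.32 ± 0.34 and the carnitine transferase gene Cpt2 -0.30 ± 0.09, with limma adjusted p-values of 0.0995, 0.200 and 0.252. Ppara itself had log2 means of 10.17 ± 0.13 in Cre minus and 9.96 ± 0.11 in Cre plus (SD, n = 3), a difference of -0.21 ± 0.09 (SE), without overlap of the groups. Pdk4, a kinase that restrains pyruvate dehydrogenase and chosen after its values were seen, read 7.27, 7.52 and 8.58 in arrays A, B and C of Cre minus and 10.73, 6.96 and 10.72 in those of Cre plus, a difference of 1.68 ± 1.09. Without Cre plus B it was 2.94 ± 0.41, without overlap of the groups, and did not pass (limma adjusted p = 0.0678). Cre plus B was also the lowest array for Ehhadh, a peroxisomal oxidation enzyme, at 11.01, and for Cyp4a14, at 10.71. Genes of this group differed in direction and in how the Cre plus livers spread.

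**Figure D4:**
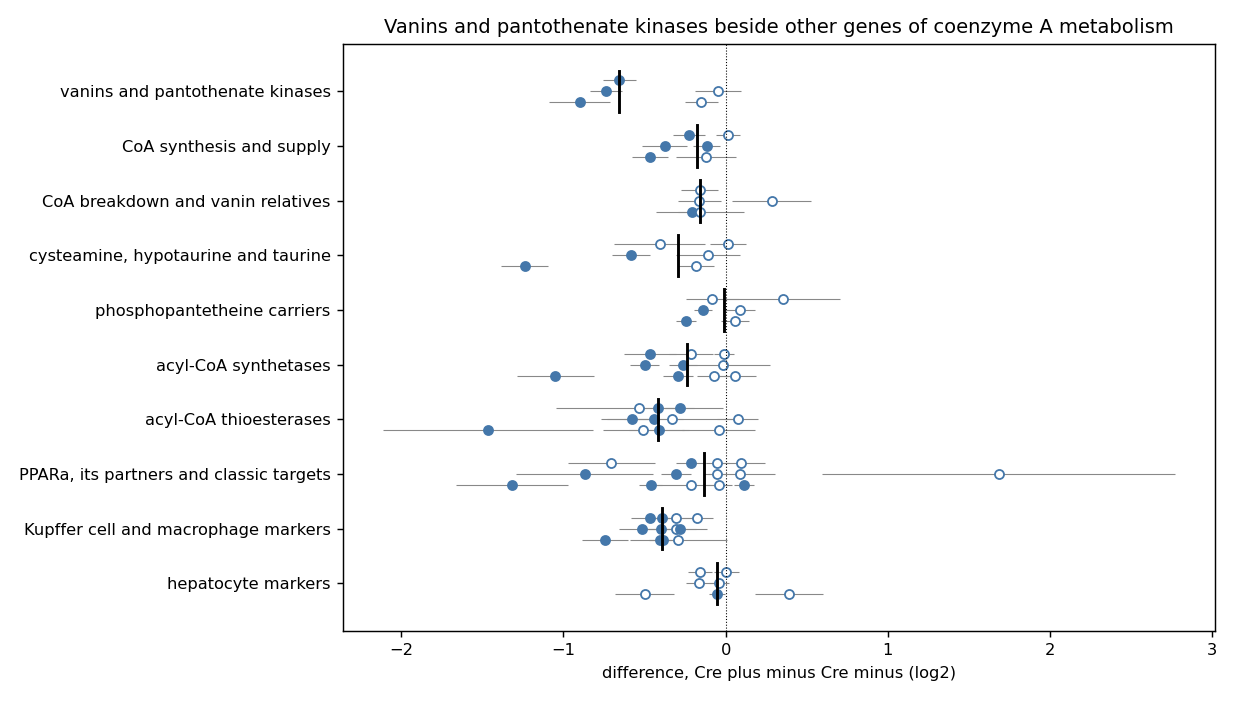
Difference Cre plus minus Cre minus (log2, horizontal axis) of each tested gene with its SE, by list (vertical axis). Filled points are genes whose groups do not overlap, open points genes whose groups do, and the black bar is the median of the list. It lies below 0 in every list drawn and nearest to 0, at -0.01, in that of the phosphopantetheine carriers. Not drawn are the endothelial, neutrophil, stellate cell and cholangiocyte markers, with medians of -0.17, 0.43, 0.06 and 0.38.

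The RNA came from whole liver, so fewer cells of a type and less RNA per cell cannot be told apart. Of the hepatocyte markers, 5 of 7 tested genes had lower values, and their summed level was between 17.21 and 17.26 in Cre minus and between 17.12 and 17.24 in Cre plus (log2 of the summed linear values). Kupffer cell and macrophage markers were lower in 12 of 12 genes, with a median difference of -0.39, 0 past limma's adjusted p and 8 of the 12 (66.7%) lower at an unadjusted p under 0.05, against 8.21% of all genes. Their summed level was between 12.14 and 12.27 in Cre minus and between 11.67 and 11.97 in Cre plus, without overlap. Of the neutrophil markers, S100a8 and S100a9 passed the filter, while Mpo and Elane lay near the bottom of the scale with group means of 2.48 to 2.50, and the summed level reached 10.75 in Cre plus A against 9.03 to 9.31 in the other 5 arrays. Endothelial markers were lower in 6 of 7 tested genes, with summed levels between 11.13 and 11.36 in Cre minus and between 10.81 and 11.13 in Cre plus. Stellate cell markers were lower in 3 of 7, with summed levels between 10.98 and 11.04 against 10.98 and 11.38. The cholangiocyte markers Krt19 and Krt7 lay near the bottom of the scale, with group means of 2.39 to 2.47, and the summed level was between 6.57 and 6.81 against 6.77 and 7.24. The part of any of these cell types in the lower Vnn1, Vnn3 and Pank1 values was not tested.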

How the data were processed

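Total RNA (2 ug per array) from liver taken 18 hours after partial hepatectomy was hybridised to 6 Affymetrix mouse arrays, 3 per group, per the labels. The deposited values are log2 values that the authors made with GCRMA, per the submitters' processing notes that name no version. GCRMA corrects background by probe sequence, normalizes between arrays and summarises probe sets, so low values are compressed. Symbols came from the platform annotation, updated by Entrez ID against RefSeq's GRCm38.p6 gene table: 34958 of 45101 probe sets had 1 symbol, 932 several and 9211 none here, and 34754 matched.

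Control probe sets (64) were left out. Probe sets above 4 (log2) in 3 or more arrays passed the filter, and the brightest of a gene stood for it (8554 genes). The groups were compared in limma 3.58.1 under R 4.3.3 (lmFit and eBayes, no block, two-sided, Benjamini-Hochberg over all genes). SEs of the vanins and pantothenate kinases came from a fit over all 15563 passing probe sets and those of these genes that missed the filter. The gene fit was tested on 20 simulated sets with 200 changed genes each and noise drawn independently for each gene. It recovered 43.8% of changes of 0.5 (log2), 82.1% of 1 and 96.1% of 2, and 5.74% of calls were false. The sets held more changed genes than passed in the real data, so these shares need not hold there. Arrays have no depth, and their number limits the precision.

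Genes named are the 5 genes, the 3 members of each list with the smallest p, the 4 genes with the highest and the 2 with the lowest correlation to Vnn1, Vnn3 and Pank1, and Socs3. Others were chosen after their values were seen. Of the 41 other genes named by smallest p in a list, likeness or position, 14 had several passing probe sets, of opposite sign in 3 (Ndufab1, Bbip1 and Stx6). Counting the 6 coenzyme A lists apart from that of PPARa was decided after the values were seen. The genes, lists and motifs were chosen with earlier results of these data known.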

Additional observations from a re-analysis of the deposited data

How the results depend on the processing

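The 14 alternatives were a common median for all arrays, quantile normalization, a filter over 6, no filter, a trended and robust prior, averaging all passing probe sets of a gene, dropping _x_at and _s_at probe sets, a replicate block and leaving out each array. The difference kept its sign in 14 of 14 for Vnn1 (-1.11 to -0.75), Vnn3 (-0.80 to -0.66) and Pank1 (-0.75 to -0.60). Their groups do not overlap, so leaving out an array could not turn the sign. The filter, prior and block settings leave the difference of a given probe set unchanged. These counts are thus no test of genes picked on this comparison. Pank2 kept its sign in 14 of 14 too (-0.20 to -0.07, the last without Cre minus A). Pank3 did so in 11 of 14. Its difference was 0.04 with the mean of its probe sets, 0.02 when Cre plus B was left out and 0.05 when Cre plus C was. The count of genes past the adjusted p, 2, was 0 with no filter and 0 with the replicate block. It was 56 of 6236 genes with the filter over 6, with Fmo1 the one coenzyme A gene of the lists among them, and 0 to 13 with 1 array left out (0 without any 1 of the Cre minus arrays, 1 without array A of Cre plus, 13 without its array B). Same-lettered arrays deviated from their group means with correlations of -0.15, -0.10 and 0.02, and those of different letters with -0.09 to 0.19. Deviations from the mean of so few arrays are tied to each other, so these values cannot decide whether the letters pair the arrays. The labels do not say whether they do. The median of the 44 coenzyme A genes stayed between -0.27 and -0.16, and their count lower at an unadjusted p under 0.05, 15, ranged from 9 to 17. The medians of single lists moved more: breakdown from -0.21 to -0.03 (the last without Cre plus C), cysteamine and taurine from -0.39 to -0.17, PPARa and its targets from -0.21 to -0.06. That of the phosphopantetheine carriers ranged from -0.05 to 0.07 in median. The cause of these changes was not tested.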
